A study of Mus musculus with 2 samples.

Results

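H19, Igf2 and Cdkn1c are 3 imprinted genes of distal mouse chromosome 7, taken here by name from the 25663 genes of a single-cell RNA table of embryonic small intestine epithelium. All 3 were in the table, and each passed the minimum mean of 0.2 CP10K used for comparisons. CP10K is the deposited signal, scaled so that every cell sums to 10000. The study held 1 Tet3 knockout library and 1 Control library, each a pool of sorted intestinal epithelial cells from 2 embryos at embryonic day 18.5, fixed in methanol and captured with 10x Genomics 3′ chemistry. Tet3 encodes an enzyme that oxidises methylated cytosines in DNA, a step towards their demethylation. The knockout embryos carried a constitutive allele without exon 5, made by Cre excision in embryonic stem cells, in which a stop codon follows in exon 6. The Control embryos are called wild type in the protocol. The strain label of both is C57BL6/J, for an incipient congenic line backcrossed from mixed stem cells.

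Imprinted genes are read mainly from 1 parental copy. In the mouse, H19 gives a maternally expressed long non-coding RNA, and the neighbouring Igf2 gives a paternally expressed fetal growth factor. The shared control region between them binds CTCF on the maternal copy and is methylated on the paternal copy. Cdkn1c lies in the next imprinted domain and gives p57Kip2, a maternally expressed inhibitor of cyclin-dependent kinases that restrains growth. All 3 are abundant in many fetal tissues and are turned down after birth in most of them. The deposited counts do not separate parental copies, so none of the values below bears on which copy was read.

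The 3 genes lie on the minus strand in the GRCm38 annotation. H19 spans chr7:142575529-142578143, Igf2 spans chr7:142650766-142666816 and Cdkn1c spans chr7:143458339-143461050. The gap between H19 and Igf2 is 72.6 kb, and that between Igf2 and Cdkn1c is 791.5 kb. H19 and Igf2 each hold a microRNA, shown here because these short RNAs are the parts of both loci with a sequence-defined product of their own. The 84 bases of the miR-675 hairpin (chr7:142577064-142577147, minus strand) lie wholly in H19 exon sequence, while the miR-483 hairpin (chr7:142654924-142654996, minus strand) lies inside Igf2 with 0 bases in its exons. In the hairpins, capitals mark the mature arms, and in the mature forms they mark the seed, bases 2 to 8. The sequences are from RefSeq on GRCm38.p6.
miR-675 hairpin: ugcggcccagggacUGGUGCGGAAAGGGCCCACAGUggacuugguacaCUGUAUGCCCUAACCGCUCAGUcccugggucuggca
mmu-miR-675-5p: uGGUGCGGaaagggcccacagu
mmu-miR-675-3p: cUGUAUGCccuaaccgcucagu
miR-483 hairpin: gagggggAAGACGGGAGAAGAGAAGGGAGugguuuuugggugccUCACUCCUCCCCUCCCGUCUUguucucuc
mmu-miR-483-5p: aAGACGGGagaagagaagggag
mmu-miR-483-3p: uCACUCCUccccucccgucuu
The 4 seeds differ from one another, and 0 other mature mouse microRNAs of the RefSeq table share any of them. The microRNAs themselves were not analysed here, since the values are 3′ tags of longer transcripts.

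A suffix of 0 or 1 on the barcode divided the cells, and these are referred to as set 0, with 5933 cells, and set 1, with 5938. The labels do not tell which suffix belongs to the Tet3 knockout library and which to the Control library, so the sets stand without a genotype. The table was treated as 1 pooled sample without replicates, and no p-value was computed. Of the set 1 barcodes, 818 also stood in set 0. In these pairs the set 1 copy held a median of 13596.5 recovered UMIs (unique molecular identifiers) and the set 0 copy 51368.5, and the 2 copies of a barcode followed each other closely, with a Spearman correlation of 0.966 for H19, 0.817 for Igf2 and 0.952 for Cdkn1c. Set 1 is therefore given without these barcodes (5120 cells) unless said otherwise. Values and cell numbers of both sets together include them, so such cells count in each set. The median depth was 23656.9 recovered UMIs a cell in set 0 and 22374.5 in set 1 without shared barcodes. Tet3 averaged 0.333 CP10K in set 0 and 0.218 CP10K in set 1, but a 3′ tag outside the removed exon checks nothing about the deletion. Epcam, a surface protein of epithelia, averaged 13.1 CP10K and was found in 99.9% of cells, whereas the summed markers of endothelial, neural and immune cells averaged 0.006, 0.022 and 0.004 CP10K. Those of mesenchymal and erythroid cells were higher, at 0.145 and 0.136 CP10K.

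Over all cells, H19 averaged 29.3 CP10K in set 0 and 33.3 CP10K in set 1. The middle 50% of cells lay between 10.8 and 42.9 CP10K in set 0 and between 20.2 and 45.4 CP10K in set 1, and the highest cell reached 144.6 CP10K in set 0 and 130.4 CP10K in set 1. Igf2 averaged 5.49 CP10K in set 0, with a highest cell of 49.9 CP10K, and 6.98 CP10K in set 1, with a highest cell of 46.4 CP10K. Cdkn1c was the gene in which the sets lay closest, at 23.7 CP10K in set 0 and 23.2 CP10K in set 1. Its middle 50% of cells lay between 9.76 and 33.1 CP10K in set 0 and between 9.80 and 33.0 CP10K in set 1. As 3′ tags are not set per transcript length, and Igf2 shares its 3′ end with another annotated gene (below), levels are compared only within a gene.

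The clearest difference was between cycling and non-cycling cells: all 3 genes were lower in cells with transcripts of Mki67 and Top2a, a nuclear antigen and a topoisomerase of dividing cells. The 11871 cells were split at 0 and 2 CP10K of the summed pair. Mean H19 in set 0 was 32.5 CP10K in cells at 0, 19.9 CP10K in those above 0 to below 2, and 7.35 CP10K in those at 2 or above. In set 1 the same series was 36.4, 24.8 and 14.1 CP10K. Both sets thus fell at each step, and in the set 0 cells at 2 or above the median was only 3.26 CP10K, against 30.4 CP10K in those at 0.

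Igf2 followed the same order. It averaged 6.10, 3.78 and 1.37 CP10K over the rising Mki67+Top2a groups in set 0, and 7.62, 5.20 and 2.79 CP10K in set 1. Cdkn1c, the cell cycle inhibitor, gave the widest gap of the 3, with 26.6, 15.5 and 3.84 CP10K in set 0 and 25.9, 15.4 and 6.59 CP10K in set 1. In both sets pooled, the 915 cells at 2 or above against the 9660 cells at 0 gave a log2 ratio of mean levels of -2.31 for Cdkn1c, -1.71 for Igf2 and -1.69 for H19, which are 4.96-fold, 3.27-fold and 3.23-fold lower. Counted as summed UMIs per 10000, H19 stood at 12.0 (exact Poisson 95% interval 11.8 to 12.1) in the cycling cells and 34.5 (34.4 to 34.6) in the others. Such intervals cover counting error only.

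All 3 genes were past 2-fold lower, where 13.4% of the 5967 genes compared were, and the median gene moved by 0.08 on the log2 scale. Cdkn1c lay at the 1.74th percentile of all genes, H19 at the 4.56th and Igf2 at the 4.46th. By set, the log2 ratio of Cdkn1c was -2.79 in set 0 and -1.97 in set 1, that of H19 was -2.14 and -1.37, and that of Igf2 was -2.15 and -1.45. Markers of other cell types and states moved with this grouping. The 4 stem cell markers summed to 1.44 CP10K in cells at 2 or above and 0.062 CP10K in cells at 0. The 3 Paneth cell markers summed to 1.91 and 0.19 CP10K, and the 6 enteroendocrine markers to 1.05 and 2.72 CP10K. The median mitochondrial percentage was 5.36 and 7.01. The summed enterocyte markers averaged 101.7 CP10K in cells at 2 or above and 673.1 CP10K in cells at 0, and the summed goblet markers averaged 8.49 CP10K in cells at 2 or above and 2.63 CP10K in cells at 0. The 8 mesenchymal markers summed to 1.04 CP10K in cells at 2 or above, where 5 of the 8 reached 0.1 CP10K and the highest was Col3a1 at 0.258 CP10K, and to 0.068 CP10K in cells at 0, where none of the 8 reached 0.1 CP10K. Without the 22 cells holding 1 CP10K or more of Col1a1, Col1a2, Col3a1 and Dcn together, the log2 ratios were -1.69 for H19, -1.70 for Igf2 and -2.32 for Cdkn1c. Within cells with Fabp1 below 40, the log2 ratios were -1.92 for H19, -1.88 for Igf2 and -2.67 for Cdkn1c. The part of the stem cell, goblet, Paneth cell, enteroendocrine and other enterocyte markers, and of the mitochondrial percentage, was not tested.

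**Figure D1:**
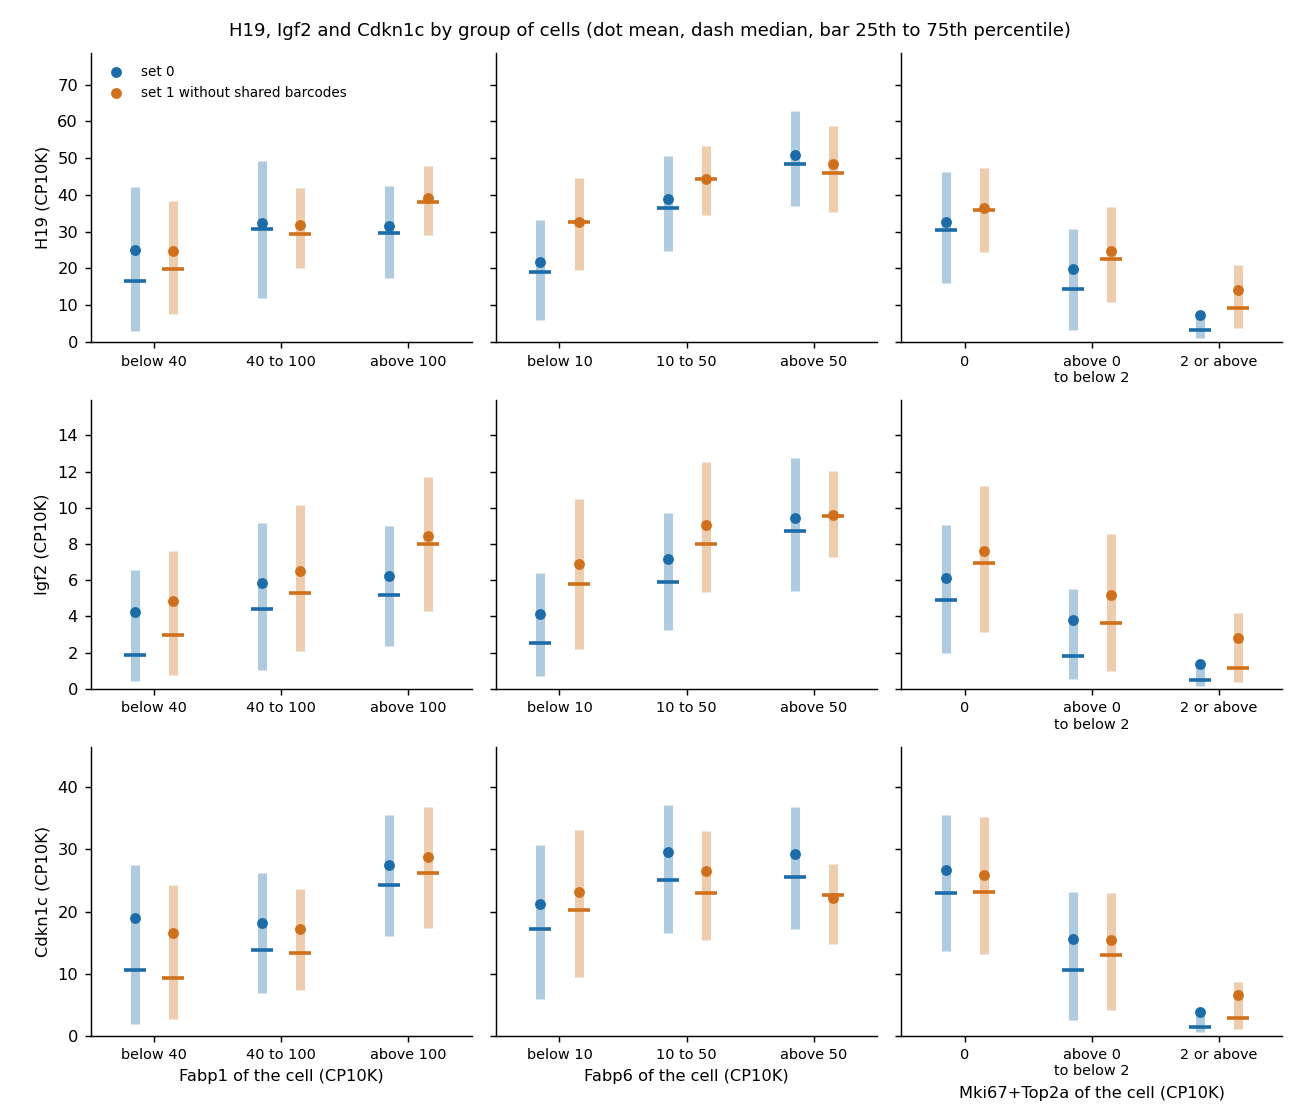
Levels of H19, Igf2 and Cdkn1c (rows, y axis in CP10K) in cells grouped by Fabp1, Fabp6 or Mki67+Top2a (columns, x axis in CP10K), for set 0 (blue) and set 1 without shared barcodes (orange); dots are means, dashes medians and bars the 25th to 75th percentile over cells. All 3 genes step down with Mki67+Top2a in both sets, while over the Fabp6 groups H19 and Igf2 step up in both sets and Cdkn1c is no higher in the top group than in the middle one. The top Fabp6 group of set 1 holds 27 cells.

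Fabp1, the liver-type fatty acid-binding protein of absorptive enterocytes, split the cells into 4093 below 40 CP10K, 1136 at 40 to 100 and 6642 above 100. Along these groups mean H19 was 25.1, 32.2 and 31.4 CP10K in set 0, and 24.8, 31.9 and 39.0 CP10K in set 1. The 2 upper groups thus lay together in set 0 and apart in set 1. Igf2 averaged 4.25, 5.83 and 6.22 CP10K in set 0, and 4.85, 6.53 and 8.42 CP10K in set 1. Cdkn1c behaved differently from both, since its lower 2 groups lay together and only the top group was higher, at 18.99, 18.1 and 27.4 CP10K in set 0 and 16.5, 17.1 and 28.8 CP10K in set 1.

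Between the outer Fabp1 groups of both sets pooled, the log2 ratio of cells above 100 over cells below 40 was 0.47 for H19, 0.65 for Igf2 and 0.63 for Cdkn1c. None of the 3 was past 2-fold, a size that 4.82% of the 5663 genes compared reached upward and 11.4% downward. The median gene gave -0.17, and the 3 genes lay at the 86.2nd, 90.9th and 90.2nd percentile. The low-Fabp1 cells were the more varied: 36.8% of them had an Mki67 or Top2a transcript, against 7.15% of the cells above 100, and the middle 50% of them in set 0 spanned 2.86 to 42.3 CP10K of H19. Marker sums of other cell types also moved with the grouping, at 0.834 CP10K above 100 and 7.59 CP10K below 40 for the 7 goblet markers, 0.729 and 5.04 CP10K for the 6 enteroendocrine, 0.057 and 1.01 CP10K for the 3 Paneth cell, and 0.031 and 0.348 CP10K for the 8 mesenchymal markers. The 4 stem cell markers summed to 0.019 CP10K above 100 and 0.570 CP10K below 40. Median UMIs were 24222.9 above 100 and 19532 below 40, and the median mitochondrial percentage was 7.55 and 5.60. The part of these markers, of depth and of the mitochondrial percentage in the ratios was not tested. In the cells with no Mki67 or Top2a transcript, the log2 ratios were 0.085 for H19, 0.26 for Igf2 and 0.18 for Cdkn1c. When these cells were also held to Fabp6 below 10, the outer Fabp1 groups gave 32.7 against 26.4 CP10K for H19 (log2 0.31), 6.77 against 4.88 CP10K for Igf2 (0.47) and 28.4 against 20.6 CP10K for Cdkn1c (0.46). In that comparison 4.59% of 5551 genes were past 2-fold higher and 8.5% lower.

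Along Fabp6, the bile acid-binding protein of the ileum, H19 and Igf2 stepped up at each group in both sets. Cdkn1c rose only from the low to the middle group. The groups of both sets together held 9454 cells below 10 CP10K, 1103 at 10 to 50 and 1314 above 50. In set 1 without shared barcodes the group above 50 held 27 cells. Mean H19 along them was 21.8, 38.8 and 50.7 CP10K in set 0 and 32.7, 44.4 and 48.4 CP10K in set 1, and mean Igf2 was 4.14, 7.15 and 9.43 CP10K in set 0 and 6.87, 9.04 and 9.59 CP10K in set 1. Set 0 thus showed the wider range, from a lower start. Over the same groups of both sets, 21.1%, 11.3% and 7.08% of cells had an Mki67 or Top2a transcript, and the Fabp6 ratios within cells without these transcripts are given below. The 6 enteroendocrine markers summed to 2.76, 0.752 and 0.886 CP10K and the 4 erythroid markers to 0.056, 0.788 and 0.169 CP10K, and their part in these values was not tested. Cdkn1c averaged 21.2, 29.6 and 29.3 CP10K in set 0 and 23.1, 26.6 and 22.1 CP10K in set 1, so that its top Fabp6 group did not exceed the middle one in either set.

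Cells with high Fabp6 were mostly in set 0, which held 1108 of them. Of the 206 in set 1, 179 carried a barcode shared with set 0, which leaves 27 cells. Pooled log2 ratios of cells above 50 over cells below 10 were 0.87 for H19, 0.73 for Igf2 and 0.39 for Cdkn1c. They were 1.22, 1.19 and 0.47 in set 0 alone, and 0.56, 0.48 and -0.06 in set 1, so the pooled values lay between sets that differed. None was past 2-fold in the pooled cells, where 3.86% of 5488 genes were past 2-fold higher and 5.54% lower, and the median gene gave 0.02.

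Fabp1 was then crossed with Fabp6 in cells without Mki67 or Top2a transcripts, where H19 stepped up along Fabp6 in every Fabp1 group of set 0. In set 0, cells with Fabp1 below 40 gave mean H19 of 19.2, 39.8 and 51.9 CP10K over the rising Fabp6 groups, those at 40 to 100 gave 16.7, 44.5 and 51.9 CP10K, and those above 100 gave 27.2, 39.4 and 49.9 CP10K. The 3 Fabp1 groups lay close together where Fabp6 was above 50, but not where it was below 10, the larger group, in which the cells with Fabp1 above 100 were the highest. Igf2 averaged 9.27, 9.56 and 9.51 CP10K over the rising Fabp1 groups of set 0 where Fabp6 was above 50, and 2.95, 2.97 and 5.41 CP10K where it was below 10. In set 1, where Fabp6 was below 10, H19 averaged 30.95, 32.1 and 38.6 CP10K over the rising Fabp1 groups, and Igf2 6.12, 6.38 and 8.36 CP10K.

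Cdkn1c was flat along Fabp6 in the cells with Fabp1 above 100, at 27.8, 27.2 and 27.0 CP10K over the rising Fabp6 groups of set 0. In the cells with Fabp1 below 40 it was 18.3, 35.0 and 32.9 CP10K. The cell group with the highest mean Cdkn1c of set 0 was thus one of low Fabp1 and middle Fabp6 (257 cells). In set 1 the same kind of cells, 35 in number, averaged 39.6 CP10K, the highest there too. Among set 1 cells with Fabp1 above 100, mean H19 was 38.6, 46.1 and 48.9 CP10K over the rising Fabp6 groups, mean Igf2 8.36, 9.35 and 9.84 CP10K, and mean Cdkn1c 29.4, 24.4 and 22.4 CP10K. H19 and Igf2 stepped up and Cdkn1c stepped down within these cells, the last group of which held 24 cells.

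**Figure D2:**
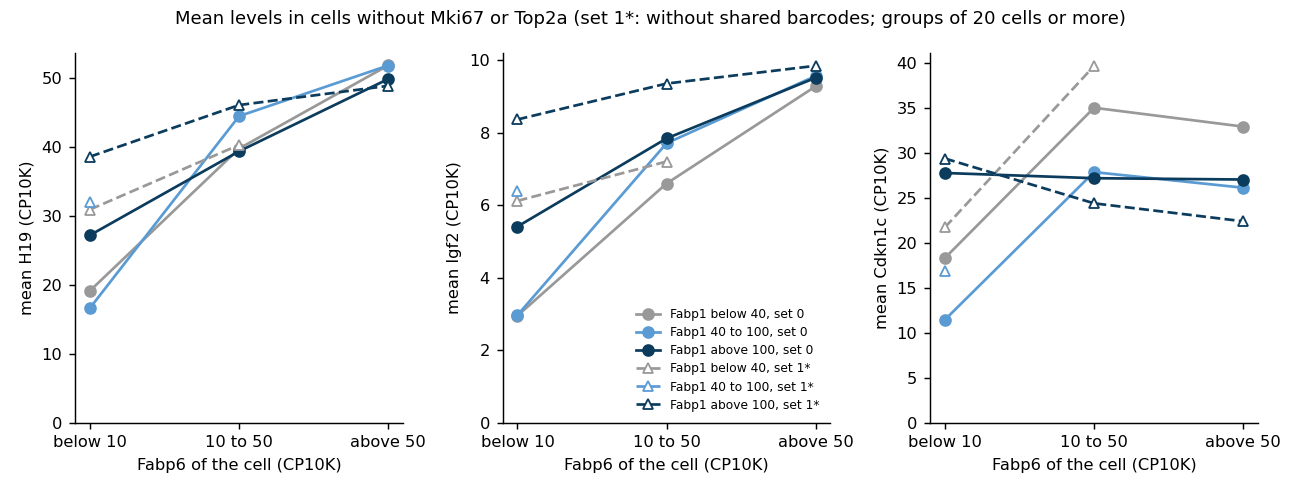
Mean H19, Igf2 and Cdkn1c (y axes, CP10K) against the Fabp6 group of the cell (x axis, CP10K), with 1 line per Fabp1 group, in cells without Mki67 or Top2a transcripts; filled circles are set 0 and open triangles set 1 without shared barcodes, and groups under 20 cells are not drawn. The set 0 lines of H19 meet near 50 CP10K at high Fabp6 whatever the Fabp1 group, while the Cdkn1c line of cells with Fabp1 above 100 is flat in set 0 and steps down in set 1.

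Pooled over sets, the Fabp6 contrast was larger in the low-Fabp1 cells without Mki67 or Top2a (507 cells above 50 against 1748 below 10) than in the high-Fabp1 cells (520 against 5080). H19 averaged 51.4 against 26.4 CP10K (log2 0.96) at low Fabp1, and 49.8 against 32.7 CP10K (0.61) at high Fabp1. Igf2 gave 0.89 at low Fabp1 and 0.47 at high Fabp1, and Cdkn1c gave 0.67 and -0.070. No member was past 2-fold in either comparison, in which the sets were mixed and set 0 held most cells with Fabp6 above 50. In set 0 alone, the means given earlier for low Fabp1 were past 2-fold apart for H19 and Igf2 but not for Cdkn1c. At low Fabp1, 4.49% of 5679 genes were past 2-fold higher and 7.34% lower, and at high Fabp1 2.38% of 5165 genes were past 2-fold higher and 2.01% lower. The cycling cells at the base of the grid, with Fabp1 below 40 and Fabp6 below 10, averaged 5.03 CP10K of H19, 0.81 CP10K of Igf2 and 2.21 CP10K of Cdkn1c in set 0 (388 cells), and 11.9, 2.28 and 5.05 CP10K in set 1 (349 cells).

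H19 and Igf2 went together cell by cell. Over all cells, their Spearman correlation was 0.78 in set 0 (5933 cells) and 0.69 in set 1 (5120 cells). Cells of a set share a library, and both values share a cell's depth and scaling, so the coefficients are descriptions. H19 itself was nearly unrelated to the cell's UMIs (0.02 in set 0 and 0.05 in set 1), and was related to the mitochondrial percentage (0.26 and 0.32). After thinning each cell to 8000 UMIs the H19 to Igf2 coefficient was 0.71 in set 0 and 0.61 in set 1. H19 and Cdkn1c gave 0.61 and 0.56, and Igf2 and Cdkn1c gave 0.59 and 0.53.

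The relation was also found inside the groups. Within single Fabp1-by-Fabp6 groups of cells without Mki67 or Top2a, the H19 to Igf2 coefficient ran from 0.474 to 0.803 in the 8 groups of set 0, with a median of 0.599, and from 0.465 to 0.761 in the 4 groups of set 1, with a median of 0.591. The smallest groups held 165 and 158 cells. H19 and Cdkn1c were less closely tied within groups, with medians of 0.369 in set 0 and 0.463 in set 1. Along Fabp1, all cells taken, the H19 to Igf2 coefficient declined from the low through the middle to the high group, at 0.86, 0.82 and 0.66 in set 0 and 0.81, 0.68 and 0.50 in set 1. The decline was steeper for H19 and Cdkn1c, at 0.80, 0.71 and 0.37 in set 0 and 0.77, 0.55 and 0.18 in set 1.

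Grouping cells in 9 bins of H19 showed the shape of the relation. Mean Igf2 was 0.58 CP10K in set 0 cells with H19 below 5 CP10K, 4.83 CP10K at 20 to 30, 8.59 CP10K at 40 to 50 and 14.2 CP10K at 80 or above. In set 1 the same bins gave 0.57, 5.45, 9.70 and 14.3 CP10K. Igf2 increased with every bin in both sets. Cdkn1c was also lowest in the first bin, at 5.49 CP10K in set 0 and 3.77 CP10K in set 1, and reached 32.8 and 30.7 CP10K at H19 of 40 to 50. From there on Cdkn1c rose less. At H19 of 50 to 60, 60 to 80 and 80 or above it was 32.2, 36.2 and 40.3 CP10K in set 0, and 31.2, 32.9 and 33.6 CP10K in set 1. The set 0 bin at 80 or above held 134 cells, of which 62.7% had Fabp6 above 50 and 0 had Mki67+Top2a of 2 or above. In set 1, with 57 cells in that bin, 1.75% had Fabp6 above 50.

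**Figure D3:**
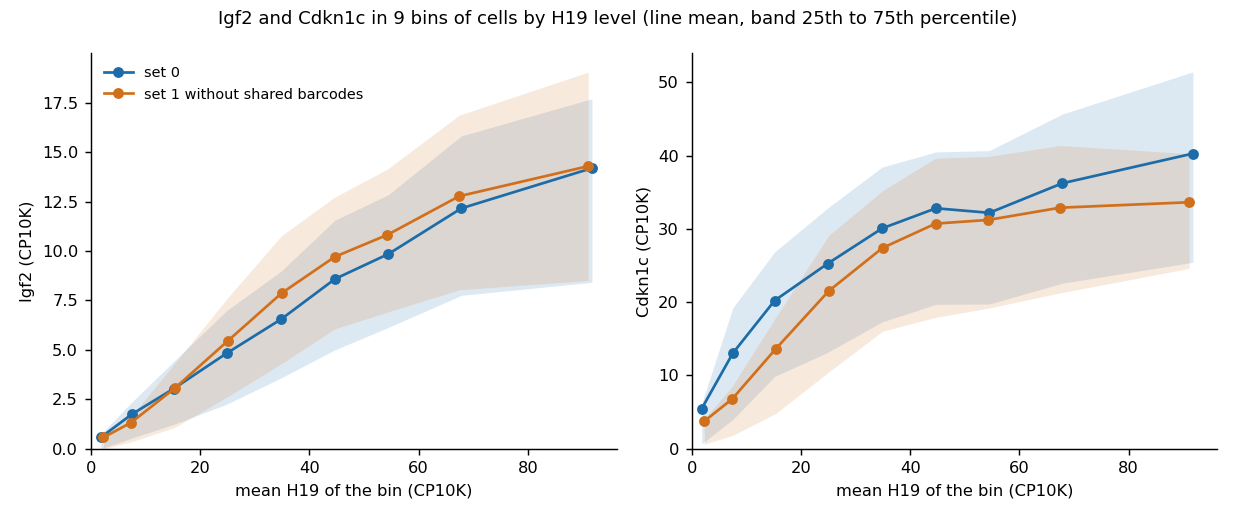
Mean Igf2 (left) and Cdkn1c (right) in 9 bins of cells by H19 level (x axis, mean H19 of the bin; all axes in CP10K), for set 0 (blue) and set 1 without shared barcodes (orange); bands span the 25th to 75th percentile of cells. Igf2 climbs over the whole range to about 14 CP10K in both sets, and Cdkn1c climbs less steeply above an H19 level of 40 CP10K, least so in set 1.

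The ratio of Igf2 to H19 moved little across the Fabp1, Fabp6 and Mki67+Top2a groups and more across the H19 bins. Summed over cells, set 0 held 19.2 Igf2 UMIs per 100 H19 UMIs (exact interval 19.1 to 19.3) and set 1 held 21.5 (21.4 to 21.7). By group the ratio stayed between 17.4 and 20.03 in set 0 and between 19.9 and 22.1 in set 1, while the H19 level itself spanned 7.35 to 50.7 CP10K in set 0. Across the H19 bins, which H19 itself defines, it was highest below 5 CP10K of H19, at 30.3 in set 0 and 23.4 in set 1, and lowest at 80 or above, at 16.1 in set 0 and 16.3 in set 1. The ratio of Cdkn1c to H19 was not as steady across groups. It was 96.3, 75.8 and 58.7 Cdkn1c UMIs per 100 H19 UMIs over the rising Fabp6 groups of set 0, and 70.3, 59.3 and 44.3 in set 1. In cells with Mki67+Top2a at 2 or above it reached 52.9 in set 0 and 48.7 in set 1.

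Thinned to 8000 UMIs, which left out 34 cells of set 0 and 50 of all set 1 cells as too shallow, 83.2% of the remaining 11787 cells, shared barcodes included, held transcripts of both H19 and Igf2. H19 without Igf2 was found in 13.2%, Igf2 without H19 in 0.87%, and neither in 2.73%. Before thinning, 98.4% of cells had an H19 UMI, 93.3% an Igf2 UMI and 97.9% a Cdkn1c UMI. The share of cells with both H19 and Igf2 after thinning was 39.2% in the set 0 cells with Mki67+Top2a at 2 or above and 62.2% in those of set 1 without shared barcodes. No cell type known to lack these RNAs was present in number, so the level that free RNA gives was not measured, and the shares are of cells with a transcript, not of cells expressing the gene.

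The Igf2 value carries an uncertainty of annotation. Gm49394, a protein-coding model, shares 3596 exonic bases with Igf2, which is 75.9% of its own and 62.8% of those of Igf2, and the 3′ ends of the 2 models are 3 bases apart, so the counting could split tags of one transcript between them. Gm49394 averaged 1.21 CP10K and was inversely related to Igf2 over cells, at -0.31 in set 0 and -0.44 in set 1. Summing both raised the correlation with H19 to 0.83 in set 0 and 0.74 in set 1. The same sum brought the pooled Igf2 log2 ratio to 0.53 by Fabp1, 0.71 by Fabp6 and -1.57 by cycling. For Igf2 alone these were 0.65, 0.73 and -1.71. The log2 ratio of Gm49394 itself was -0.03 between the outer Fabp1 groups, 0.61 between the outer Fabp6 groups and -0.97 between cycling and non-cycling cells. Antisense genes overlap 2 members as well, Igf2os on 98 exonic bases of Igf2 and Gm44732 on 625 of Cdkn1c. Whether the counting used strand is not given in the sources used here, so reads of a gene and its antisense partner may not have been told apart.

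Likeness was measured as the lower of the Spearman coefficients of set 0 and of all set 1 cells, among 5052 genes with a mean of at least 0.2 CP10K. The genes least like a member were ranked by the higher of these coefficients instead. The gene most like H19 was Igf2, and the gene most like Igf2 was H19 (0.78 in set 0 and 0.69 in set 1 for the pair). The gene next in likeness to H19 was Mamdc4, the endosomal glycoprotein endotubin (0.70 and 0.60). Cdkn1c (0.61 and 0.56) and Maob, a mitochondrial monoamine oxidase (0.66 and 0.55), were also among the 5 closest. The median gene had a coefficient with H19 of 0.014 in set 0 and 0.017 in set 1, and the 95th percentile was 0.343 and 0.288. The genes least like H19 were Krt19, a keratin (-0.56 and -0.53), and H3f3b, a gene for histone H3.3 (-0.53 and -0.52).

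The genes next in likeness to Igf2 after H19 were Cdkn1c (0.59 and 0.52) and Maob (0.61 and 0.48), and its antisense neighbour Igf2os was also among the 5 closest (0.52 and 0.45). Cdkn1c had another closest gene, Renbp, an N-acylglucosamine epimerase (0.61 in both sets). Its 5 closest also held Acsl5, a long-chain acyl-CoA synthetase (0.59 and 0.61), Ass1, the argininosuccinate synthase of the urea cycle (0.64 and 0.58), and Maob (0.59 and 0.56). H19 stood 6th and Igf2 13th in likeness to Cdkn1c. The genes least like Igf2 were Cldn3, a tight junction claudin (-0.57 and -0.47), and Krt19 (-0.57 and -0.46). The genes least like Cdkn1c were Cldn3 (-0.57 and -0.58) and Ccnd2, a D-type cyclin (-0.56 and -0.57).

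**Figure D4:**
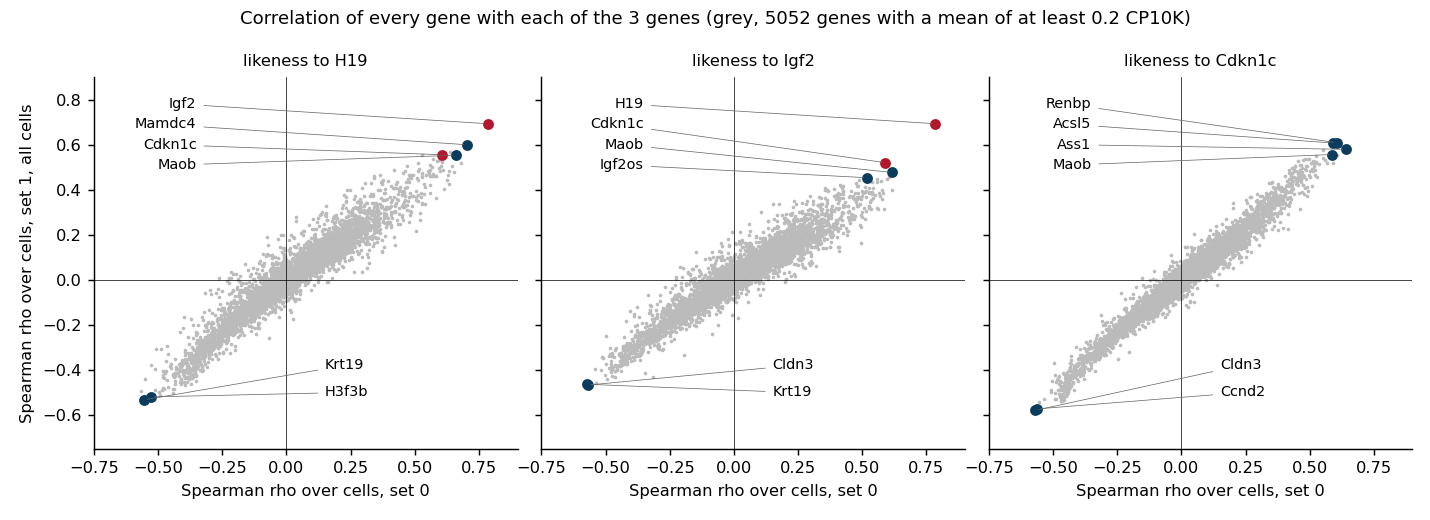
Spearman correlation over cells of every gene with H19 (left), Igf2 (middle) and Cdkn1c (right), in set 0 (x axis) and in all cells of set 1 (y axis); grey points are the 5052 genes, red points are the other members and dark blue points other genes named in the text. The pair of H19 and Igf2 stands above all other genes in the left and middle panels at 0.78 and 0.69, and no such gap separates the top genes in the right panel.

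The neighbours on chromosome 7 did not move as a block. The window around the 3 genes held 52 genes of the table, 14 of them with a mean of at least 0.2 CP10K. Kcnq1ot1, the paternally expressed antisense RNA of the Cdkn1c domain, averaged 1.11 CP10K in cells with Fabp1 above 100 and 1.66 CP10K in those below 40, gave a log2 ratio of 0.12 between cycling and non-cycling cells, and stood 2148th in likeness to H19. Ctsd, the gene of the lysosomal protease cathepsin D, lies on the other side of H19 from Igf2 and came near the members, with a likeness to H19 of 0.60 in set 0 and 0.48 in set 1 (25th), a cycling log2 ratio of -1.77 and a Fabp6 log2 ratio of 1.15. Slc22a18, a transporter gene beside Cdkn1c, gave -1.11 between cycling and non-cycling cells, while Tssc4 gave 1.20 and Nap1l4, a histone chaperone gene, gave 0.77. These genes other than Tssc4 and Nap1l4 were chosen after their values were seen.

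**Figure D5:**
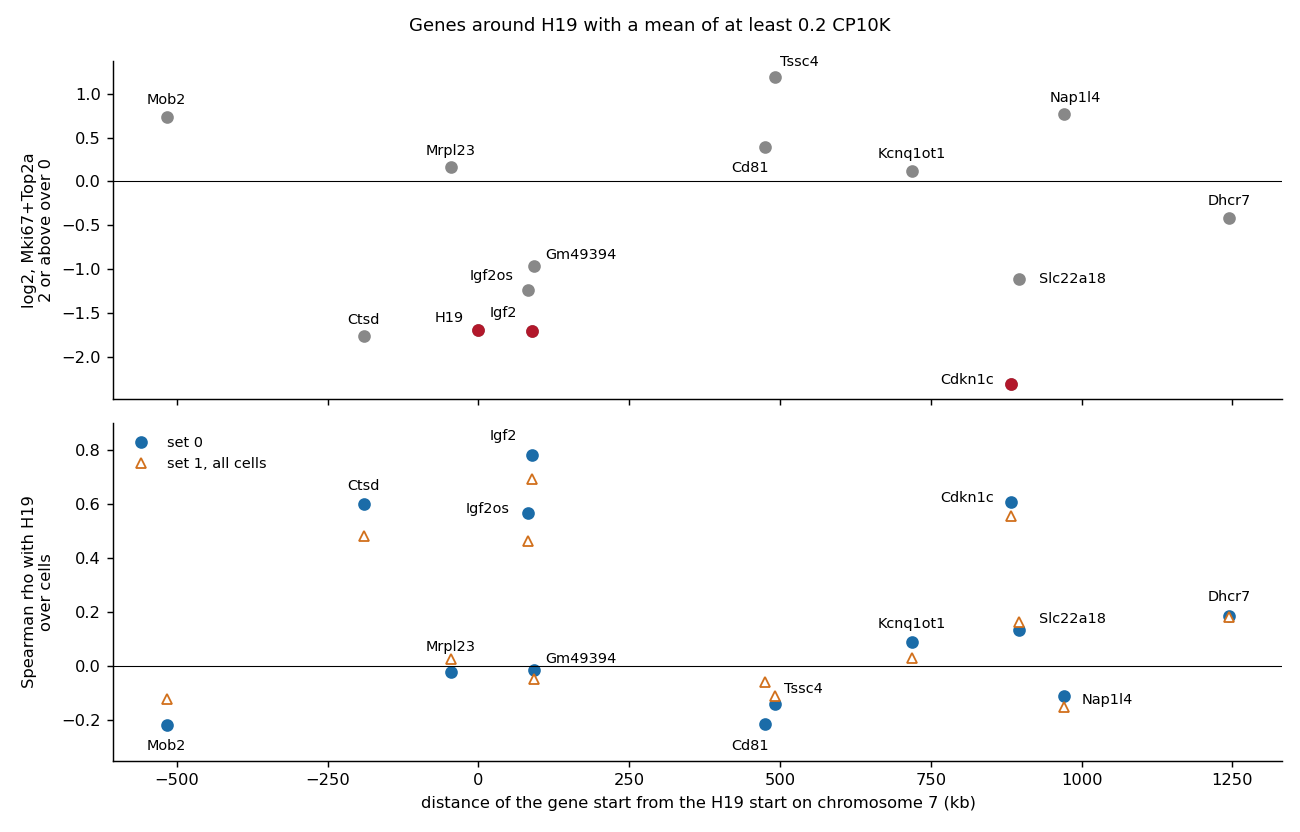
Genes with a mean of at least 0.2 CP10K against the distance of their start from the H19 start on chromosome 7 (x axis, kb); the upper panel gives the log2 ratio of mean CP10K in cells with Mki67+Top2a of 2 or above over cells at 0, and the lower panel the Spearman correlation with H19 over cells in set 0 (circles) and in all cells of set 1 (triangles). The 3 members (red) lie at -1.69 to -2.31 in the upper panel, with neighbours on both sides of 0 between them.

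Of the list of 24 distal chromosome 7 neighbours, 9 were measured between the outer Fabp1 groups, 2 higher and 7 lower, with 0 past 2-fold and a median of -0.28, where 4.82% of all genes were past 2-fold higher and 11.4% lower. Between cycling and non-cycling cells 10 were measured, 1 past 2-fold higher and 3 lower, with a median of 0.14, against 17.3% higher and 13.4% lower of all genes. A list of 36 genes held imprinted genes elsewhere in the genome and also Zfp57 and Trim28, which maintain imprints and are not imprinted themselves. Of it, 11 were measured by Fabp1, 3 higher and 8 lower, with 1 past 2-fold each way. Those were Mirg, a maternally expressed RNA of chromosome 12, at 0.356 CP10K above 100 and 0.087 CP10K below 40 of Fabp1 (log2 1.91), and Trim28, the co-repressor that maintains imprints, at 0.238 and 0.546 CP10K (-1.16). The list's median was -0.14 by Fabp1, 0.56 by Fabp6 and -0.43 by cycling, where 4 of 11 were past 2-fold lower and 1 higher, against 13.4% and 17.3% of all genes. Meg3, a maternally expressed RNA chosen after its values were seen, averaged 0.24 CP10K in cycling and 0.93 CP10K in non-cycling cells (-1.91).

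IGF signalling genes were mostly below the minimum, with 7 of 25 measured by Fabp1. Of these, 6 were higher and 1 lower, and 1 was past 2-fold, Igfals, the acid-labile subunit that holds IGFs in serum complexes, at 0.272 CP10K above 100 and 0.110 CP10K below 40 of Fabp1 (log2 1.23), where 4.82% of all genes were past 2-fold higher. Between cycling and non-cycling cells, 8 of the list were measured, 3 higher and 5 lower, with a median of -0.67. Of these, 2 were past 2-fold higher and 2 lower, against 17.3% and 13.4% of all genes. The higher were Igfbp4, an IGF-binding protein gene, at 0.277 against 0.018 CP10K (log2 3.35), and Pik3r1, a regulatory subunit of phosphoinositide 3-kinase (2.11). The lower were Igfals, at 0.042 CP10K in cycling cells (-2.25), and Igf2r, the receptor that clears IGF2 (-1.37). Igfbp4, Pik3r1 and Igf2r were chosen after their values were seen.

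Genes of growth in the fetus and of the cell cycle were mostly lower in cells with Fabp1 above 100, as were 3500 of all 5663 genes compared, of which 11.4% were past 2-fold lower. In the list of fetal RNA-binding proteins and the let-7 axis, all 6 measured of 10 were lower in cells with Fabp1 above 100, and 3 were past 2-fold: Hmga2 and Hmga1, chromatin proteins of fetal growth (log2 -2.49 and -1.69), and Elavl1, an RNA-stabilising protein (-1.04). Its median was -0.88 by Fabp1 and 0.81 by cycling. Of 22 partners and relatives of Cdkn1c in the cell cycle, 8 were measured by Fabp1, 1 higher and 7 lower, 3 of them past 2-fold. Those 3 were the cyclin genes Ccnd2 (0.070 against 1.62 CP10K, log2 -4.35), Ccna2 (-3.75) and Ccnd1 (-3.74). Between cycling and non-cycling cells, 12 of this list were measured, 10 higher and 2 lower, with 8 past 2-fold higher and 0 lower. Of all genes, 17.3% were past 2-fold higher there and 13.4% lower. Transcripts of dividing cells defined these groups, so higher cell cycle genes in them are no separate result. The other cyclin-dependent kinase inhibitors measured there were Cdkn1b at a log2 ratio of 1.37, Cdkn2d at 1.06, Cdkn1a at 0.075 and Cdkn2b at -0.75, against -2.31 for Cdkn1c. These 4 were named after their values were seen.

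Factors that act on the H19 and Igf2 control region had different directions by grouping. All 9 measured of 16 were lower in cells with Fabp1 above 100 than in those below 40, 2 of them past 2-fold (Smc3, a cohesin subunit, at 0.322 against 0.733 CP10K, and Trim28), with a median of -0.76, where 11.4% of all genes were past 2-fold lower and the median gene gave -0.17. Between cycling and non-cycling cells, 10 of 11 were higher and 8 past 2-fold, with a median of 1.39. Of all genes, 17.3% were past 2-fold higher there. Transcripts of dividing cells defined these groups, and how far the rise goes with division itself was not tested. Between the outer Fabp6 groups 3 of 9 were higher and 6 lower, with 0 past 2-fold and a median of -0.23. There 3.86% of all genes were past 2-fold higher and 5.54% lower. In the cells with Fabp1 above 100 and no Mki67 or Top2a, all 9 measured factors were higher with high Fabp6. Their median was 0.18, with 0 past 2-fold. Of the 5165 genes compared in these cells, 2823 were higher, 2.38% past 2-fold, and the median gene gave 0.04. Fabp6 comparisons of gene lists pooled the sets, and set 0 held most cells with Fabp6 above 50, so differences between sets may enter them. A link of the factors to H19 and Igf2 was not tested. Ctcf, the insulator protein, averaged 0.94 CP10K in cycling and 0.35 CP10K in non-cycling cells. It was chosen after its values were seen.

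Cells grouped by Cdkn1c itself, with bin limits chosen after values were seen, differed in Fabp1 along the bins. Median Fabp1 in set 0 was 5.93 CP10K where Cdkn1c was below 5 CP10K, 251.3 CP10K at 30 to 40, and 7.46 CP10K at 80 or above. Set 1 gave 6.04, 207.8 and 169.0 CP10K for the same bins, so the low median of the top bin was found in set 0 and not in set 1. In both sets together, 131 cells had Cdkn1c of 80 CP10K or above, with a mean of 96.9 CP10K. They averaged 46.9 CP10K of H19, and 72 of them had Fabp1 below 40, 54 of the 88 in set 0 and 18 of the 43 in all of set 1. With Cdkn1c below 5, 83.9% of the set 0 cells and 87.4% of the set 1 cells had Fabp1 below 40. Only 3 of the 131 had an Mki67 or Top2a transcript. These bins use Cdkn1c to choose the cells, so their Cdkn1c levels are no result.

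Cells with the strongest stem cell and goblet markers held less of the 3 RNAs than the average cell. With Olfm4, a crypt stem cell marker, at 5 CP10K or above, 101 cells averaged 2.45 CP10K of H19, 0.41 CP10K of Igf2 and 1.30 CP10K of Cdkn1c. Of these, 57 had Mki67+Top2a of 2 or above, but the 25 without Mki67 or Top2a transcripts averaged 3.61 CP10K of H19, near the others. Goblet markers here were Spink4, Fcgbp, Muc2, Clca1 and Zg16, without the Agr2 and Tff3 of the sums above. The 35 cells with 100 CP10K or more of these goblet markers averaged 4.91 CP10K of H19, 1.19 CP10K of Igf2 and 2.51 CP10K of Cdkn1c, at a median depth of 7091 UMIs. Between 20 and 100 CP10K of those markers, 128 cells averaged 25.03 CP10K of H19. Enteroendocrine cells, taken as 44 cells with 5 CP10K or more of Chga and Chgb, lay in between, with 10.3 CP10K of H19, 1.94 CP10K of Igf2 and 10.4 CP10K of Cdkn1c. The limits of these groups were chosen after values were seen, and doublets were not called.

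H19 rounded to 0 recovered UMIs in 190 cells, 150 of set 0 and 31 of set 1 without shared barcodes. These cells averaged 0.36 CP10K of Igf2 and 3.24 CP10K of Cdkn1c, at a median depth of 16006.5 UMIs. Igf2 rounded to 0 in 800 cells, which averaged 4.90 CP10K of H19. Cdkn1c rounded to 0 in 246 cells, which averaged 2.93 CP10K of H19, 0.40 CP10K of Igf2 and 8.09 CP10K of Fabp1. Cells at 0 for 1 of the genes thus averaged low levels of the other members.

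Between the sets as a whole, all set 1 cells included, H19 averaged 29.3 CP10K in set 0 and 33.0 CP10K in set 1 (log2 -0.17), Igf2 5.49 and 6.72 CP10K (-0.29) and Cdkn1c 23.7 and 23.4 CP10K (0.02). None was past 2-fold, as were 0.949% of 5266 genes higher and 0.627% lower, and the median gene gave -0.05. Within cells of 1 kind the gap of H19 was wider: at Fabp1 above 100, Fabp6 below 10 and no Mki67 or Top2a, H19 averaged 27.2 CP10K in the 2362 cells of set 0 and 38.6 CP10K in the 2412 cells of set 1 without shared barcodes, Igf2 averaged 5.41 and 8.36 CP10K, and Cdkn1c averaged 27.8 and 29.4 CP10K. Set 0 also held most of the cells with Fabp6 above 50, in which its H19 was highest. Genotype, embryo and library cannot be told apart in these differences.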

How the data were processed

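The values in the table deposited by the authors are a signal on a linear scale, adding up to 10000 for each cell, here called CP10K. Tools credited to the submitters' processing notes are alevin with Salmon 0.14.1, and Scanpy 1.6.0, with GRCm38 and mm10 as genome builds. How cells were filtered by the authors is not known here. UMIs were recovered per cell from the step of its values, of which 94.9% were whole within 0.01 in the median cell (84.1% in the lowest), so depth ran from 1152.5 to 250629 UMIs. Levels are means over cells. Log2 ratios are of mean CP10K with 0.01 added, over genes with a mean of 0.2 in either group. Exact Poisson 95% intervals and thinning used recovered UMIs (Python 3.11.15, numpy 2.4.6, scipy 1.17.1, pandas 2.3.3), and the code was tested on simulated data. No set was given a genotype, so Tet3 knockout and Control were not compared. The members and gene lists were chosen with earlier results of these data known. Besides the members and grouping genes, the genes named are the 5 most and 2 least like each member and, from each list, up to 4 past 2-fold between the outer Fabp1 groups, or else the largest 2; 1 gene so chosen is not reported here. Doublets were not called. Alternatives were other limits, filters, depths, totals and gene minimums.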

Additional observations from a re-analysis of the deposited data

How the results depend on the processing

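All 3 genes kept their direction over the Fabp1 and Mki67+Top2a groups under every alternative run, with log2 ratios of 0.09 to 0.77 (H19), 0.26 to 0.94 (Igf2) and 0.18 to 1.03 (Cdkn1c) for Fabp1. Cdkn1c turned over between the outer Fabp6 groups in cells with Fabp1 above 100 (-0.070), and between set 0 and set 1 without mitochondrial, ribosomal protein and haemoglobin genes in the total (-0.0092) and in cells with Fabp1 above 100, Fabp6 below 10 and no Mki67 or Top2a (-0.061). The cause was not tested. The H19 to Igf2 coefficient of set 0 (0.783) moved to 0.706 after thinning, 0.770 at 15000 to 35000 UMIs, 0.862, 0.824 and 0.663 within the rising Fabp1 groups, 0.631 and 0.542 within Fabp6 of 10 to 50 and above 50, 0.722, 0.855 and 0.678 within the rising Mki67+Top2a groups, and 0.827 with Gm49394 added to Igf2. That of all set 1 cells (0.693) moved to 0.726 as Pearson's r of log2 values, 0.623 after thinning, 0.811, 0.677 and 0.531 by Fabp1, 0.592 and 0.553 by Fabp6, 0.621, 0.778 and 0.778 by Mki67+Top2a, and 0.747 with Gm49394. Genes past 2-fold fell to 301 for Fabp1 (916 as reported), 162 for Fabp6 (516) and 619 for Mki67+Top2a (1833) under a minimum of 1 CP10K, where fewer genes were compared. With 0.1 added they fell to 612 for Fabp1, 299 for Fabp6 and 1316 for Mki67+Top2a. Groupings by Igf2 with Gm49394, collagen transcripts, cell markers, Cdkn1c and matched cells were added after seeing the data. No paired analysis was possible because the table pools the libraries and no label ties a cell to one. With 1 library per genotype, differences between embryos or libraries could not be measured.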
